A study of Homo sapiens with 3 samples.

Results

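The 47 genes described here encode activating and inhibitory receptors of myeloid cells and 1 of their adaptors: the leukocyte immunoglobulin-like receptors (LILR) with LAIR1, the Fc receptors, the CD300 family, myeloid C-type lectins (CLEC), the PILR and TREM receptors with the adaptor TYROBP, and the signal regulatory proteins (SIRP). They were chosen by name, with earlier results of these data known. Of the 47, 46 were matched to one of the 57773 rows of a gene count table (LILRA3 was not, and is not analysed here). RNA came from NB4, a human acute promyelocytic leukaemia cell line blocked at the promyelocyte stage by the PML-RARA fusion protein. Polyadenylated RNA was sequenced in 3 libraries: cells with ARID1B hairpin 2, cells with ARID1B hairpin 3, and cells with a non-target control hairpin. ARID1B belongs to BAF, a complex that remodels chromatin, and a short hairpin RNA (shRNA) lowers its mRNA. All 3 libraries are NB4 cells with a hairpin, grown in the same serum-containing RPMI medium, with no other named treatment. Each hairpin is represented by 1 library, the knockdown lowers ARID1B without deleting it, and the labels do not say whether the cultures or infections were separate. The p-values below thus reflect the spread between the 2 knockdown libraries alone, largely shared across genes, and the lone control adds none. That spread includes any difference between the hairpins and may be technical.

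Receptors of this kind set the threshold at which a phagocyte responds. Activating members carry, or pair with an adaptor that carries, a tyrosine motif (ITAM) that recruits the kinase SYK once Src-family kinases have phosphorylated it; the adaptors are TYROBP (DAP12) and FCER1G (the Fc receptor gamma chain), while HCST (DAP10) recruits phosphoinositide kinase instead. Inhibitory members carry a tyrosine motif (ITIM) that recruits the phosphatases PTPN6 (SHP-1), PTPN11 (SHP-2) and INPP5D (SHIP-1). Many are encoded in clusters of recent duplicates, so near-identical members can share reads.

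The libraries held 59997475 counts under hairpin 2, 62954803 under hairpin 3 and 61640692 in the control. ARID1B had 2209 counts under hairpin 2 and 2234 under hairpin 3, against 5268 in the control library, so both knockdown libraries carried less of the targeted transcript. Of the promyelocyte markers, MPO, AZU1, PRTN3, CTSG and CD33 had at least 1672 counts in every library, while ELANE had at most 10. The stem cell marker CD34 had no counts in any library. A count of 0 allows up to 3 counts, or a level of 0.0499 CPM under hairpin 2, 0.0481 under hairpin 3 and 0.0483 in the control. Counts-per-million values (CPM) are counts scaled to the library size after TMM normalization, and the floors, like the counting intervals below, cover counting error alone.

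The sequences upstream of 5 members whose level rose, as described below, are shown for the adaptor TYROBP, the Fc receptor FCGR1A, the LILR neighbours LILRA2 and LILRA1, and CD300A. They are the 250 bases before the annotated start in RefSeq (build GRCh38.p14, which is not the build of the counts), 5′ to 3′ on the strand of the gene; where RefSeq lists several starts, the one furthest upstream was taken. Capitals mark matches, on either strand, to GAGGAA (the core bound by the myeloid factor PU.1), GATAA (the core bound by GATA factors) or TTCNNNGAA (the core bound by STAT factors); no matches of different motifs overlapped in these windows.
TYROBP, chr19:35908296-35908545, - strand: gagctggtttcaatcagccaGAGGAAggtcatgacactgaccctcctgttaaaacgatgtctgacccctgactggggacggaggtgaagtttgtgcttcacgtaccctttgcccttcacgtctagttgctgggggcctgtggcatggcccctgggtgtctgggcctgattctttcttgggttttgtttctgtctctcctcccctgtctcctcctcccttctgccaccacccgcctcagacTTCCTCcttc
FCGR1A, chr1:149782444-149782693, + strand: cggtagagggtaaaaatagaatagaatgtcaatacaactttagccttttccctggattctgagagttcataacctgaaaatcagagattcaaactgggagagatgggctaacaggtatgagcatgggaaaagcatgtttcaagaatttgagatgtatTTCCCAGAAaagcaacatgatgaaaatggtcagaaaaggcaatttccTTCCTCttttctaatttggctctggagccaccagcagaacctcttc
LILRA2, chr19:54573540-54573789, + strand: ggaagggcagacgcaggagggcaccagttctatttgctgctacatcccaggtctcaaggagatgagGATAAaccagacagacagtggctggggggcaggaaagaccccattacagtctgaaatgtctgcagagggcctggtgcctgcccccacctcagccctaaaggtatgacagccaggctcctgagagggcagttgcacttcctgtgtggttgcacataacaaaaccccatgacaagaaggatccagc
LILRA1, chr19:54593382-54593631, + strand: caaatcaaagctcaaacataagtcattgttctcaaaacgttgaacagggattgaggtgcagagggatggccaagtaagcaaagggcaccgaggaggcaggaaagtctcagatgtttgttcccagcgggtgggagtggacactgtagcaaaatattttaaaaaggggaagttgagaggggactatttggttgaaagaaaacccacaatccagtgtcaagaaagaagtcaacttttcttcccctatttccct
CD300A, chr17:74466123-74466372, + strand: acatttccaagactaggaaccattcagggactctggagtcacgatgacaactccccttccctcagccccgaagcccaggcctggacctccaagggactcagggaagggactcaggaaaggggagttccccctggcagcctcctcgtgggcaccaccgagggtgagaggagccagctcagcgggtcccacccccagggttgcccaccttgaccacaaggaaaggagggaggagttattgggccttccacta
TYROBP, the adaptor, held 2 matches to GAGGAA. FCGR1A, the high-affinity IgG receptor, held 1 match to GAGGAA and 1 to TTCNNNGAA. LILRA2 held 1 match to GATAA, and its neighbour LILRA1 and the inhibitory receptor CD300A held none of the 3 motifs. The bases just after the CD300A start were not found in a GENCODE 29 transcript of the gene, unlike those of the other genes shown. The start of CD300A is thus less certain. Of 29 members with a RefSeq upstream sequence, 14 held GAGGAA, 6 held GATAA and 2 held TTCNNNGAA. Among all 35116 RefSeq upstream windows of the same length 23.6% held GAGGAA, 20.4% GATAA and 6.57% TTCNNNGAA. These windows include every listed start of a gene, while each member gave 1 window, so the 2 sets are not alike. Of the 8 members with a sequence whose level rose, 3 held GAGGAA, 1 GATAA and 1 TTCNNNGAA. A match is a run of letters and was not examined for binding.

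The receptors spanned a wide range of levels. Per kilobase of exon, and averaged over the 3 libraries, 6 members lay above 10 CPM per kilobase (CLEC11A, PILRB, SIRPA, PILRA, TYROBP and SIRPB1) and 24 of the 46 lay below 1. CLEC11A, a secreted growth factor of the C-type lectin fold, stood highest, at 256 CPM per kilobase under hairpin 2 and 228 under hairpin 3, against 210 in the control. PILRB, the activating partner of PILRA, followed at 36.0 and 38.7 in the knockdown libraries, against 42.2 in the control, although 49.2% of its annotated exon length lies in a read-through transcript of the same strand. SIRPA, the inhibitory receptor for CD47, had 19.6 under hairpin 2 and 14.4 under hairpin 3, against 15.0 in the control, and PILRA had 16.7 in each knockdown library, against 14.3. The levels of SIRPA and PILRA, neighbours in this order, overlapped between libraries. At the other end, 9 matched members were too low to be tested. TREM2, the lipid-sensing receptor of macrophages, had 0 counts in all 3 libraries, CLEC10A had 1 count in each, and CLEC4C, a marker of plasmacytoid dendritic cells, had at most 1. FCGR3A and FCGR3B, low-affinity IgG receptors of natural killer cells and mature neutrophils, had at most 5 counts in any library. LILRA4, LILRA5, LILRB5 and FCRLA, the other untested members, had at most 9.

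**Figure D1:**
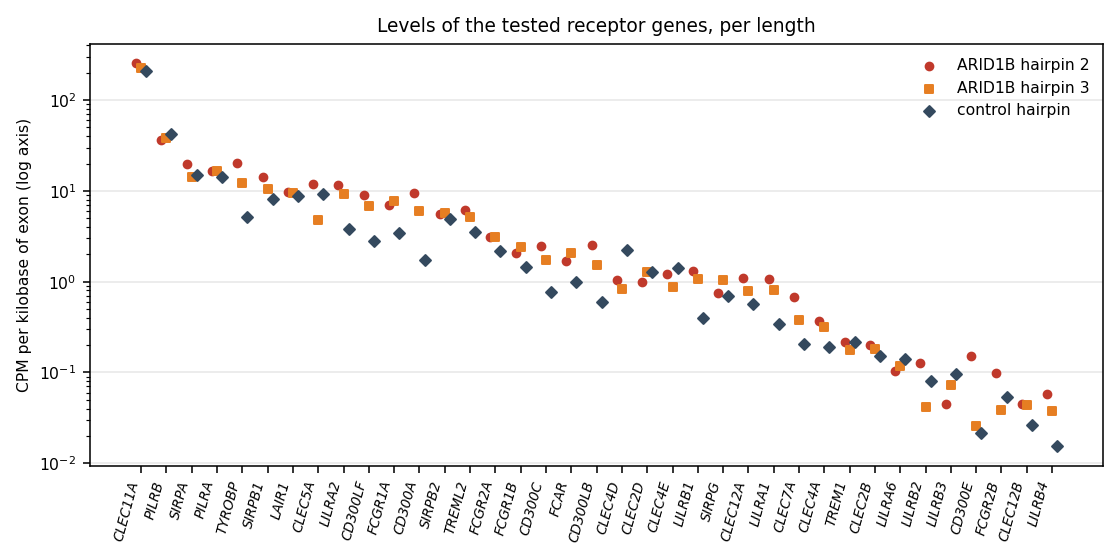
Level of each tested member in CPM per kilobase of exon (log axis), with 1 point per library and genes ordered by their mean over the 3 libraries. CLEC11A stands highest at 210 to 256, and the control library lies below both ARID1B hairpin libraries for TYROBP, LILRA2, CD300LF and CD300A.

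With ARID1B silenced, 13 of the 47 members were higher, 1 was lower and 23 did not pass the test (edgeR quasi-likelihood test over 20382 genes, Benjamini-Hochberg adjusted p under 0.05). These were 35.1% and 2.7% of the 37 members tested. Over all genes tested, 5.49% were called higher, 3.21% lower and 8.7% in either direction. The median log2 fold change of the 37 tested members was 0.61, and that of all tested genes was -0.01. Earlier results of these data were known when the members, and the gene lists below, were chosen, so these shares are descriptive. The 13 were CD300A, CD300LB, CD300LF and CD300C, LILRA1, LILRA2 and LILRB1, the Fc receptors FCGR1A and FCAR, the adaptor TYROBP, the lectin CLEC7A, TREML2 and SIRPB1; the lower gene was the lectin CLEC4D. Of the 13, 10 were at least 2-fold higher, as were 518 of the 1119 genes called higher over all. The filter on low counts let LILRB4, CD300E and CLEC12B into the test through a knockdown library alone, and none of these passed. The fit had 1 residual degree of freedom, from the difference between the hairpins, and both knockdown libraries were set against the same lone control. All 14 calls ended when no filter on low counts was applied (0 members called in edgeR, 14 of 45 at an unadjusted p under 0.05). With the filter, DESeq2 called 11 members higher and 0 lower (16 members at an unadjusted p under 0.05). In these bulk RNA samples, more cells of a type and more RNA per cell cannot be told apart.

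**Figure D2:**
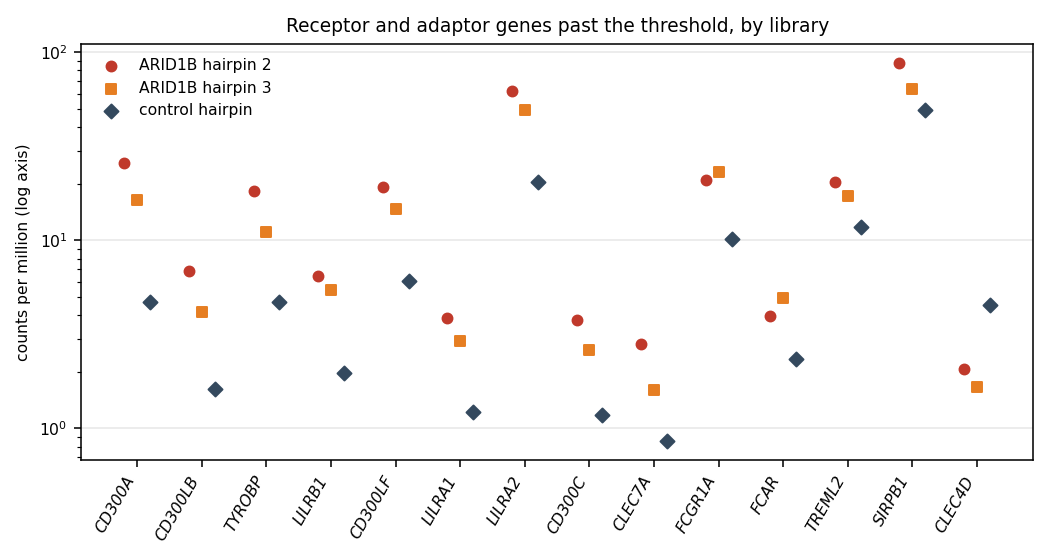
CPM (log axis) of the 14 members past the threshold, with 1 point per library. For the 13 higher genes both ARID1B hairpin libraries lie above the control point, and for CLEC4D both lie below it.

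By role, 8 of 21 activating receptors rose and 1 fell, against 3 of 14 inhibitory receptors that rose and none that fell. The median log2 fold changes were 0.77 for the 16 activating and 0.74 for the 13 inhibitory members tested. The difference between the roles was not tested. TYROBP, the adaptor that CD300LB, CD300E, CLEC5A, TREM1, TREM2 and SIRPB1 use, had 1104 counts under hairpin 2 and 690 under hairpin 3, against 292 in the control library. Both knockdown libraries lay above the control, at 18.4 and 11.1 CPM, against 4.70 CPM. It rose by 1.64 ± 0.255 (log2 fold change ± SE, edgeR adjusted p = 0.000539). With robust empirical Bayes this call ended (edgeR adjusted p = 0.0682; range over the alternatives 1.07e-05 to 0.47).

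Of the 5 CD300 genes, which encode lipid-binding receptors of myeloid cells, 4 rose. CD300A, an inhibitory receptor for phosphatidylserine and phosphatidylethanolamine, had 1546 counts under hairpin 2 and 1013 under hairpin 3, against 293 in the control library. Its level was 21.0 ± 6.69 CPM in the knockdown libraries (SD, n = 2) and 4.72 CPM in the control, the largest rise among the tested members, 4.44-fold (log2 2.15 ± 0.242, edgeR adjusted p = 3.24e-05). The knockdown libraries themselves differed, with a hairpin 2 to hairpin 3 ratio of 1.58 (exact 95% counting interval 1.46 to 1.71). CD300LB, an activating receptor that signals through TYROBP, had 414 and 259 counts in the knockdown libraries, against 100 in the control (log2 fold change 1.77 ± 0.314, edgeR adjusted p = 0.00168). CD300LF, an inhibitory receptor, had 1160 and 913 counts, against 377 (1.48 ± 0.198, edgeR adjusted p = 0.000138). CD300C, the activating counterpart of CD300A, had 226 and 163 counts, against 73 (1.44 ± 0.320, edgeR adjusted p = 0.00907). In each of these genes the hairpin 3 library stood between the hairpin 2 library and the control. CD300E differed between the hairpins, with 34 counts under hairpin 2 and 6 under hairpin 3, against 5 in the control, and did not pass (edgeR adjusted p = 0.262); its ratio to the control under hairpin 3 was 1.2 (exact 95% counting interval 0.304 to 4.95). The CD300 genes share at most 1.7% of the 50-base words of their transcripts with another gene.

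The LILR genes that rose lay side by side in the cluster on chromosome 19: LILRA2, LILRA1 and LILRB1 are consecutive protein-coding genes there. LILRA2, an activating receptor that recognises cleaved immunoglobulin, had 3763 counts under hairpin 2 and 3091 under hairpin 3, against 1268 in the control library (log2 fold change 1.46 ± 0.162, edgeR adjusted p = 2.89e-05). LILRA1, an activating receptor, had 233 and 182 counts in the knockdown libraries, against 76 (1.47 ± 0.304, edgeR adjusted p = 0.00537). LILRB1, an inhibitory receptor for HLA class I, had 390 and 337 counts, against 123 (1.58 ± 0.249, edgeR adjusted p = 0.000597). Their folds lay between 2.75 and 3.0. The next gene, LILRB4, an inhibitory receptor of monocytes, had 22 and 15 counts in the knockdown libraries, against 6 in the control, and did not pass (1.62 ± 0.713, edgeR adjusted p = 0.20). FCAR, the IgA receptor at the far end of the cluster, had 238 counts under hairpin 2 and 308 under hairpin 3, against 145 in the control (0.93 ± 0.255, edgeR adjusted p = 0.0317), a call lost with DESeq2 (adjusted p = 0.151) and in edgeR on genes averaging 1 CPM or more (adjusted p = 0.0720; range over the alternatives 0.0178 to 0.47).

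On the other side of the cluster no tested member passed. LAIR1, an inhibitory collagen receptor, had 4724 counts under hairpin 2 and 4706 under hairpin 3, against 4425 in the control (log2 fold change 0.11 ± 0.128, edgeR adjusted p = 0.694). LILRB2 had 29 and 10 counts, against 19, and the control lay between the hairpins. LILRB3 had 10 and 17 counts, against 22, and LILRA6 had 17 and 20, against 24; these share up to 22.4% of their 50-base words, and their summed counts gave -0.50 ± 0.414 (edgeR adjusted p = 0.556). Sequence shared with relatives was 17.6% for LILRB1, 5.3% for LILRA1 and 18.1% for LILRA2, mostly with an overlapping transcript of the same strand in the last case, so the split of reads among them is uncertain. An antisense transcript covers 7.1% of the exon length of LILRB1, and the use of strand in counting is not known. The choice to set the genes out by position was made after their values were seen.

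**Figure D3:**
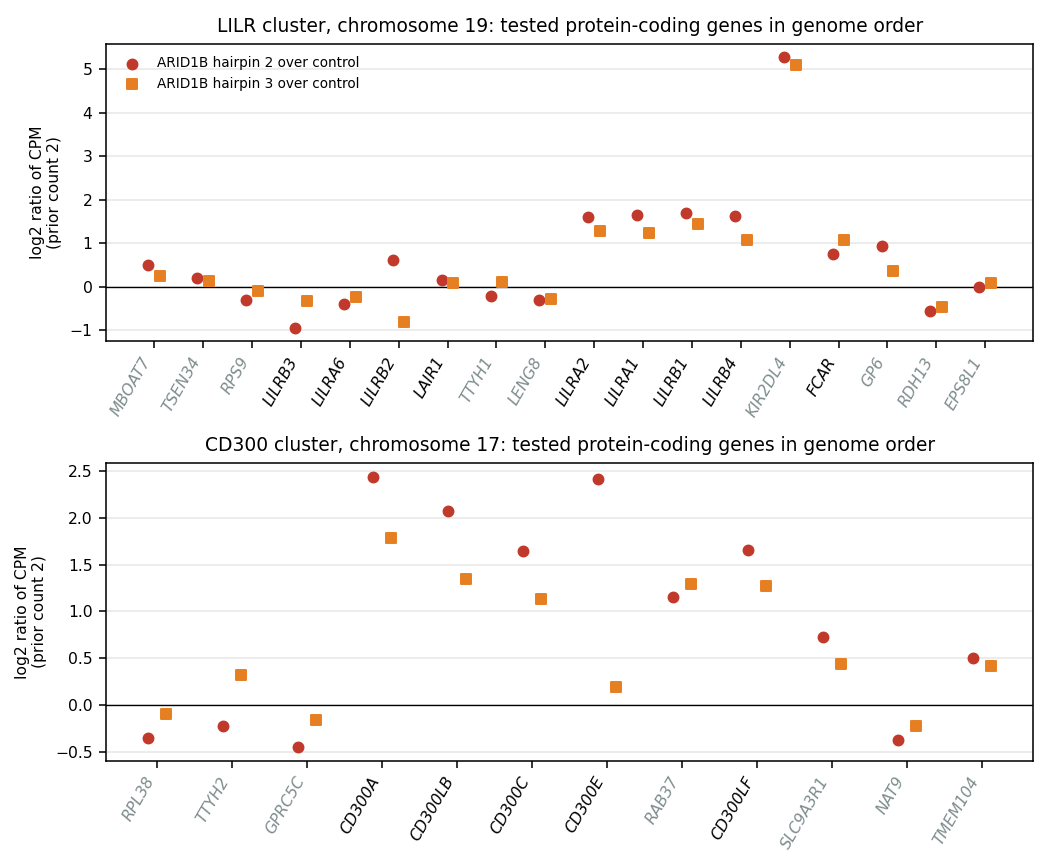
Log2 ratio of CPM (prior count 2) of each ARID1B hairpin library over the control library, for tested protein-coding genes in genome order across the LILR cluster (top) and the CD300 cluster (bottom); members have black names and other genes grey names. LILRA2, LILRA1 and LILRB1 lie above 0 under both hairpins, as do CD300A, CD300LB, CD300C and CD300LF, while LAIR1 lies near 0; LILRB4 and CD300E had at most 6 counts in the control.

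Genes were ordered by their lowest coordinate alone, so neighbours in the order may overlap. In the CD300 cluster, RAB37, a small GTPase gene listed between CD300E and CD300LF and on the opposite strand, also rose. It had 4450 counts under hairpin 2 and 5089 under hairpin 3, against 2069 in the control (log2 fold change 1.22, edgeR adjusted p = 3.54e-05). Of the 6 nearest tested protein-coding genes outside the cluster, 2 rose, SLC9A3R1 (0.59) and TMEM104 (0.46), on the CD300LF side, and the other 4 did not pass. None of the 6 nearest tested genes outside the LILR cluster passed. TYROBP lies next to HCST, the gene of the related adaptor DAP10, and HCST rose as well, with 946 and 809 counts in the knockdown libraries, against 400 in the control (1.16 ± 0.188, edgeR adjusted p = 0.000794). The other 5 of the 6 nearest tested neighbours of TYROBP did not pass.

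Of 8 Fc receptor genes, 5 were tested, of which 2 rose and none fell. FCGR1A, the high-affinity IgG receptor CD64, had 1265 counts under hairpin 2 and 1448 under hairpin 3, against 635 in the control library. That was 22.1 ± 1.55 CPM in the knockdown libraries (SD, n = 2) and 10.2 CPM in the control, a rise of 1.11 ± 0.162 on the log2 scale (edgeR adjusted p = 0.000291). FCGR1A shares 49.6% of its 50-base words with FCGR1B, which had 425 and 509 counts, against 305, and did not pass alone (0.63 ± 0.204, edgeR adjusted p = 0.0683). The summed counts of both genes, 1690 and 1957 in the knockdown libraries against 940 in the control, rose (0.97 ± 0.152, edgeR adjusted p = 0.000535). FCGR2A, the activating receptor CD32A, had 997 and 1025 counts, against 712, just short of the threshold (0.53 ± 0.160, edgeR adjusted p = 0.0521; range over the alternatives 0.0405 to 0.47). Summed with the inhibitory FCGR2B and with FCGR2C it passed (edgeR adjusted p = 0.0476). FCGR2B itself had 39 counts under hairpin 2 and 16 under hairpin 3, against 22 in the control, so the control stood between the hairpins. FCGR1A and FCAR were the only members among the 13 with more under hairpin 3 than under hairpin 2; the other 11 were higher under hairpin 2, as were 83.3% of all 1119 genes called higher and 49.8% of all genes tested.

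Of 12 C-type lectin genes, 10 were tested, of which 1 rose and 1 fell. CLEC7A (dectin-1), the receptor for fungal beta-glucan with its own ITAM-like motif, had 169 counts under hairpin 2 and 99 under hairpin 3, against 53 in the control library (log2 fold change 1.36 ± 0.388, edgeR adjusted p = 0.0387). This call ended with DESeq2 (adjusted p = 0.169), with robust empirical Bayes (edgeR adjusted p = 0.0713) and on genes averaging 1 CPM or more (edgeR adjusted p = 0.107; range over the alternatives 0.0140 to 0.481). CLEC4D, an activating receptor for mycobacterial glycolipid, had 125 and 103 counts in the knockdown libraries, against 281 in the control, and fell (-1.28 ± 0.251, edgeR adjusted p = 0.00364), though not with DESeq2 (adjusted p = 0.0514; range over the alternatives 0.000755 to 0.47). Its neighbour and partner CLEC4E (mincle) had 174 and 133 counts, against 213, and did not pass (-0.45 ± 0.262, edgeR adjusted p = 0.367). CLEC4D and CLEC4E thus lay below the control under both hairpins, where most tested members lay above it. Over all tested members, 26 lay above the control under both hairpins, 6 below it, and in 5 the control lay between or level with a hairpin. The same count over all genes was not made, and both hairpins share the lone control, so these counts are descriptive. For some of the 26, such as CLEC2B, the counting intervals under both hairpins include 1. Among the 6 below, the same holds for LILRA6 and LILRB3, and CLEC2D under hairpin 3 was level with the control (554 counts against 552).

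CLEC5A, an activating receptor that pairs with TYROBP, differed between the hairpins, with 2974 counts under hairpin 2 and 1221 under hairpin 3, against 2349 in the control. The ratio to the control was 1.31 under hairpin 2 (exact 95% counting interval 1.24 to 1.38) and 0.518 under hairpin 3 (0.483 to 0.555), so the libraries with a hairpin against ARID1B lay on opposite sides of the control. An antisense neighbour, MGAM, covers 12% of its exon length and had 2556 and 1207 counts, against 1496; without strand, reads of the overlap cannot be told apart. CLEC12A, an inhibitory receptor of myeloid cells and leukaemic blasts, had 214 and 160 counts in the knockdown libraries, against 114, and did not pass (0.74 ± 0.290, edgeR adjusted p = 0.148). CLEC11A, CLEC2D, CLEC2B, CLEC4A and CLEC12B also did not pass, with log2 fold changes between -0.17 and 0.84. Of these, CLEC4A lies for 69.7% of its exon length in an overlapping transcript of the same strand, and CLEC12B had at most 10 counts.

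Among the remaining families, SIRPB1, an activating receptor that signals through TYROBP, had 5283 counts under hairpin 2 and 3965 under hairpin 3, against 3077 in the control library (log2 fold change 0.61 ± 0.167, edgeR adjusted p = 0.0316). Its inhibitory paralogue SIRPA had 5972 and 4544 counts, against 4718, with the control between the hairpins (0.18 ± 0.161, edgeR adjusted p = 0.594). SIRPB1 passed neither with robust empirical Bayes (edgeR adjusted p = 0.115) nor on genes averaging 1 CPM or more (edgeR adjusted p = 0.109; range over the alternatives 0.0104 to 0.481). Summed with SIRPA and SIRPG, which share sequence with it, it also did not pass (0.37 ± 0.163, edgeR adjusted p = 0.208). An overlapping transcript of the same strand covers 13.4% of SIRPB1 and rose by 0.67 (edgeR adjusted p = 0.0292). SIRPB2 and SIRPG had log2 fold changes of 0.19 and 0.37 and did not pass. TREML2, a TREM-like receptor, had 1219 and 1071 counts in the knockdown libraries, against 724 in the control (0.68 ± 0.167, edgeR adjusted p = 0.0162), a call lost on genes averaging 1 CPM or more (edgeR adjusted p = 0.0578; range over the alternatives 0.00775 to 0.47). TREM1, which amplifies inflammatory signals through TYROBP, had 57 and 48 counts, against 58, and did not pass (-0.12 ± 0.368, edgeR adjusted p = 0.901). PILRA and PILRB, with 0.23 ± 0.137 and -0.18 ± 0.133, did not pass either (edgeR adjusted p = 0.385 and 0.513).

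**Figure D4:**
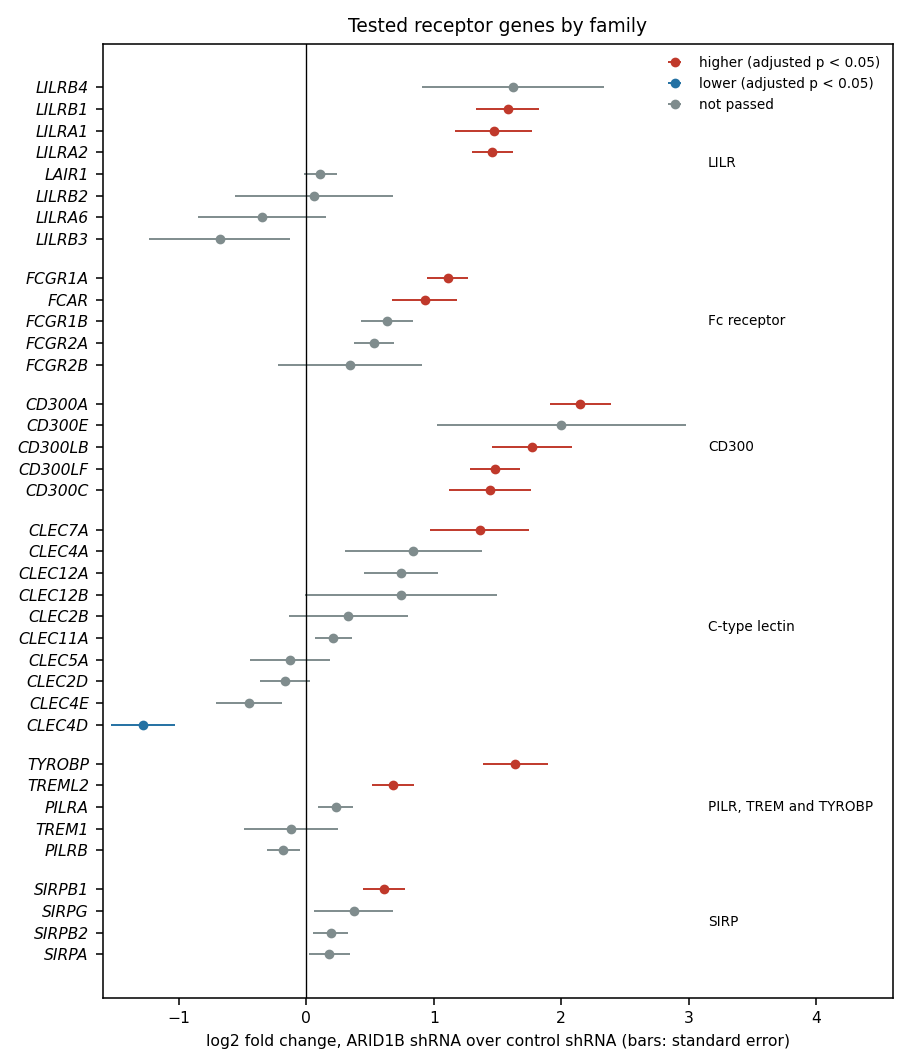
Log2 fold change of each of the 37 tested members, ARID1B shRNA over control shRNA, with bars of 1 standard error, grouped by family; red marks genes called higher and blue the gene called lower. The 4 CD300 genes called higher lie between 1.44 and 2.15, and CLEC4D lies at -1.28.

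Of 32 adaptors, kinases and downstream genes of the activating pathway, 13 rose, 1 fell and 18 did not pass, with a median log2 fold change of 0.34 (over all genes tested, 5.49% rose and 3.21% fell, with a median of -0.01). The Src-family kinases FGR (1.73 ± 0.362, edgeR adjusted p = 0.00574) and LYN (0.92 ± 0.134, edgeR adjusted p = 0.000287) were among them, with HCST, the scaffold LCP2 (1.09 ± 0.163) and the kinase TEC (0.95 ± 0.227). LYN had 4654 counts under hairpin 2 and 4706 under hairpin 3, against 2501 in the control. FCER1G, the adaptor of FCGR1A, FCAR, LILRA2 and CLEC4E, had 733 and 542 counts in the knockdown libraries, against 380 in the control (0.77 ± 0.215, edgeR adjusted p = 0.0353). SYK, which binds the phosphorylated adaptors, had 19047 and 18172 counts, against 14832, and did not pass (0.35 ± 0.140, edgeR adjusted p = 0.155). The gene that fell was CBLB, a ubiquitin ligase that restrains this pathway (-0.69 ± 0.203, edgeR adjusted p = 0.0444).

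On the inhibitory side, 4 of 12 phosphatases and adaptors (11 tested) rose, 36.4% of those tested, and none fell, with a median of 0.29. Over all genes tested, 5.49% rose and 3.21% fell. PTPN6 (SHP-1), the phosphatase that most ITIM receptors recruit, had 13428 counts under hairpin 2 and 11946 under hairpin 3, against 7610 in the control (log2 fold change 0.76 ± 0.143, edgeR adjusted p = 0.00278). The adaptor DOK2 (1.39) and the receptor phosphatases PTPRJ (0.86) and PTPRC (0.64) were the others. INPP5D (SHIP-1), the lipid phosphatase of FCGR2B, had 23928 and 24206 counts, against 22906, and did not pass (0.09 ± 0.141, edgeR adjusted p = 0.783). Of 22 ligands of these receptors, 13 were tested, of which 7 rose (53.8%) and 1 fell (7.69%). HLA-G, HLA-C and HLA-B, ligands of LILRB1, rose by 1.59, 1.39 and 1.28 on the log2 scale, and B2M, their common light chain, by 0.72; reads of the HLA genes can be split between near-identical relatives. BST2, the ligand of LILRA4, rose by 0.57 and CD47, the ligand of SIRPA, by 0.56, while VIM fell by 0.48 on the log2 scale. Of 52 related Fc, lectin and immunoglobulin-like receptor genes that are not members, 50 were matched to a row and 21 were tested. Of these, 2 rose, MRC2 and CLEC17A, and none fell. The 2 were 9.52% of the genes tested in this list, near the 5.49% over all genes. CLEC17A passed the filter on low counts through the knockdown libraries alone, so it could be called only higher.

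**Figure D5:**
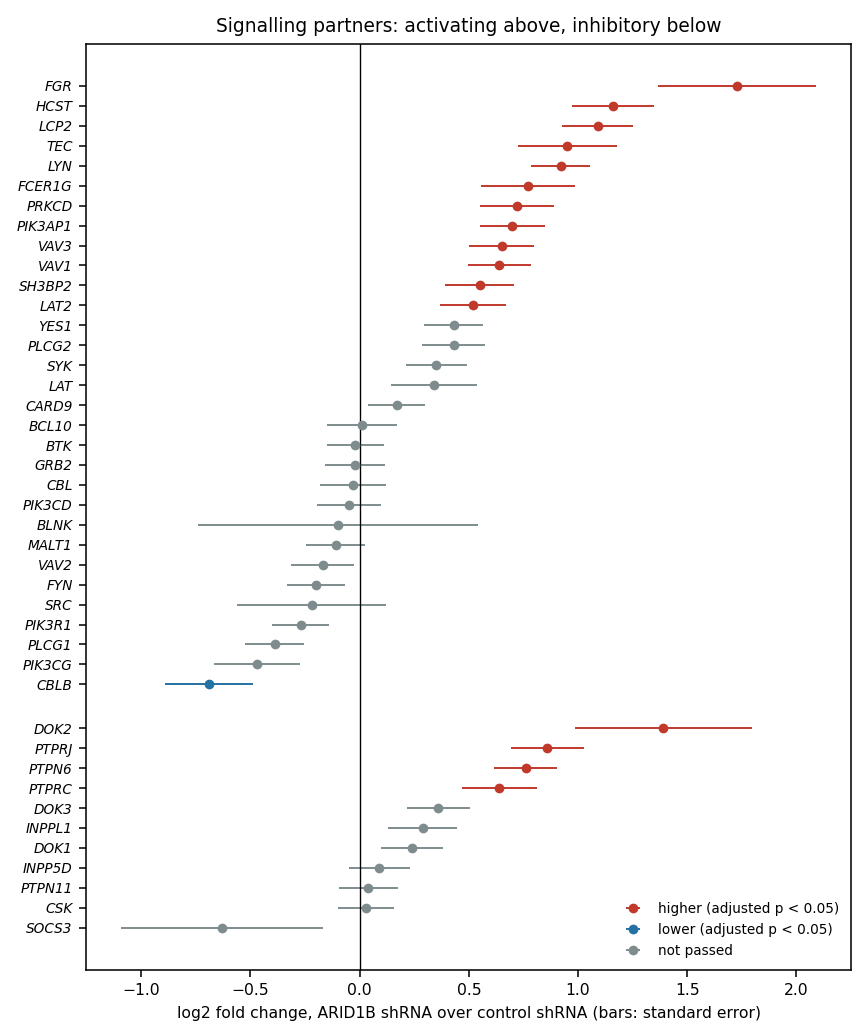
Log2 fold change of the tested signalling partners reported here, ARID1B shRNA over control shRNA, with bars of 1 standard error; the activating pathway stands above and inhibitory phosphatases and adaptors below. FGR (1.73) and DOK2 (1.39) lie furthest right in their lists, and INPP5D lies at 0.09.

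Some regulators and cell type markers moved in the same libraries. For the counts below, 5.49% of all genes tested rose and 3.21% fell, with a median log2 fold change of -0.01. Of 25 myeloid transcription factors, 24 were tested. Of these, 8 rose, among them GATA1 (log2 fold change 3.70), IRF5 (1.76), NFE2 (1.45), GATA2 (1.38) and IRF8 (1.05), and 1 fell, GFI1 (-0.44). The list was mixed, with a median of 0.12. In it 13 genes lay above the control under both hairpins and 7 below, and in 4 the control lay between or level. SPI1, which encodes PU.1, had 9936 counts under hairpin 2 and 8034 under hairpin 3, against 6463 in the control, and did not pass (0.50 ± 0.153, edgeR adjusted p = 0.0550). Of 9 eosinophil, basophil and mast cell markers, 8 were tested and 6 rose (EPX, PRG2, CLC, HDC, CPA3 and TPSAB1). The summed level of this list was 2142 CPM under hairpin 2 and 1123 under hairpin 3, against 91.9 in the control, with FCER1A at 0. Of the 7 promyelocyte markers, PRTN3 rose by 2.11 and CTSG fell by 1.81 on the log2 scale, and their sums were 14488 and 12473 CPM in the knockdown libraries, against 11418. Of 8 monocyte and macrophage markers, 7 were tested and 3 rose, FCN1 and CD68 among them. The sums of this list were 74.8 and 52.0 CPM in the knockdown libraries, against 32.3. CD14 had 16 and 13 counts, against 5. Of 8 mature neutrophil markers, 2 were tested and 1 rose (CXCR2). The sums of this list were 6.0 and 3.58 CPM, against 2.27, and CEACAM8 was at 0 in every library. Of 8 T and NK cell markers, 4 were tested and 2 rose (CD3D and NKG7), with list sums of 181 and 155 CPM, against 128. Of 6 B cell markers, 4 were tested and 0 rose, with sums of 25.3 and 16.2, against 14.0, and MS4A1 at 0. Of those 4, 2 lay above the control under both hairpins and 2 below, with a median log2 fold change of -0.16. Of 8 dendritic cell markers, 4 were tested, 0 rose and FLT3 fell, with sums of 17.8 and 21.1, against 27.2. The sum was higher under hairpin 2 than under hairpin 3 in each of these marker lists except the dendritic cell list. Each sum is led by the markers with the highest levels, so it does not give the direction of every marker. The part of these cell types in the receptor results was not tested.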

How the data were processed

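The authors deposited whole-number read counts per Ensembl gene, not normalized; STAR, featureCounts, Cufflinks and the build hg19 are named per the submitters' processing notes. The notes give no role or options for these tools, and the annotation release and strand use were not given in the sources used here, so the split of reads between overlapping or near-identical genes is uncertain. Names, exon lengths, gene order and 50-base word sharing came from GENCODE 29, another build, so no coordinates of the counts are given; it named 52338 of 57773 IDs, and 24848 IDs had no counts.

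Counts were tested in R 4.3.3 with edgeR 4.0.16: filterByExpr by group (minimum count 10; 20382 genes), TMM factors, estimateDisp, glmQLFit with legacy = FALSE and glmQLFTest, two-sided, Benjamini-Hochberg adjusted over all genes tested, threshold 0.05. The 2 ARID1B hairpin libraries were compared with the 1 control library, which leaves 1 residual degree of freedom (prior 14.8; common biological coefficient of variation 0.11); the lone control was assumed to vary like them. Each standard error was computed as |log2 fold change| / sqrt(F). Ratios between libraries have exact (Clopper-Pearson) 95% counting intervals. Alternatives were DESeq2 1.42.0, upper quartile or no scaling factors, no filter or a mean CPM of at least 1, robust or legacy fits, 1 hairpin alone and summed near-identical genes.

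The members and lists were chosen with earlier results of these data known. Named were members past the threshold or with at least 20 counts in a library, up to 6 called genes of each list, and ARID1B, FCER1G, SYK, PTPN6, INPP5D and SPI1. Some called genes of these lists are counted but not reported here by name.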

Additional observations from a re-analysis of the deposited data

How the results depend on the processing

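The count of higher members was 13, and 9 to 14 in 6 of the 7 alternatives that give calls (11 with DESeq2, 10 with robust empirical Bayes, 9 with a mean CPM of at least 1). Without a filter on low counts 0 members were called higher and 0 lower, and 0 genes over all higher and 0 lower in edgeR (3218 genes and 14 members at an unadjusted p under 0.05); the cause was not tested. With DESeq2 0 members were lower, since CLEC4D was lost, and 277 genes over all were lower, against 655. With a mean CPM of at least 1, where fewer genes are tested, 622 genes were higher and 338 lower, against 1119 and 655. The share of calls that were higher was 63.1%; DESeq2 gave 73.7%, and upper quartile factors gave 53.8%. Apart from the fit without a filter, 8 of the 13 higher members passed in every alternative (LILRA1, LILRA2, LILRB1, FCGR1A, CD300A, CD300C, CD300LB and CD300LF), and no called member changed direction in any. With 1 hairpin against the control, which gives values and no test, the 13 kept their direction, from 0.36 for SIRPB1 under hairpin 3 to 2.44 for CD300A under hairpin 2, and CLEC4D lay at -1.44 and -1.11 (log2, prior count 2). No paired analysis was possible because there is 1 control library. At this depth, members with at most 9 counts went untested.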

Other observations

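Genes beside or akin to the receptors, picked after their values were seen, moved further than any member. KIR2DL4, a killer cell immunoglobulin-like receptor gene that lies between LILRB4 and FCAR, had 73 counts under hairpin 2 and 67 under hairpin 3, against 0 in the control library. Against a floor of 3 counts per library this is at least 25.1-fold higher under hairpin 2 and at least 22.2-fold higher under hairpin 3. KIR2DL4 passed the filter on low counts through the knockdown libraries alone. The other KIR genes in the table around it had at most 11 counts in any library, and KIR genes resemble each other closely, so the split of reads is uncertain. CLEC17A, a C-type lectin gene outside the member list, had 76 and 50 counts in the knockdown libraries, against 1 in the control, or 78.5 times the control under hairpin 2 (exact 95% counting interval 13.7 to 3140) and 49.8 times under hairpin 3 (interval 8.54 to 2010).

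Further changes stood beside the lectin and SIRP genes, again picked after their values were seen. Between the lectin members, 2 of 16 tested genes rose and 1 fell (over all genes, 5.49% and 3.21%). Between the SIRP members, 1 of 2 rose. It was AL049634.2, the transcript described above that covers 13.4% of SIRPB1 on the same strand. Its rise is thus not separate from that of SIRPB1. Of the 6 nearest tested genes outside each cluster, 1 rose at the lectin cluster and 1 at the SIRP cluster. TGM3, a transglutaminase gene on the far side of SIRPA, had 2200 counts under hairpin 2 and 1281 under hairpin 3, against 157 in the control (log2 fold change 3.50, edgeR adjusted p = 2.41e-06), while SIRPA did not pass. C3AR1, the receptor for the complement fragment C3a, and the glucose transporter SLC2A3 lie between CLEC4C and CLEC4A and rose by 1.26 and 0.96 (edgeR adjusted p = 0.000205 and 0.000859). RIMKLB, beyond CLEC4E, had 152 and 329 counts in the knockdown libraries, against 775, and fell by 1.67 on the log2 scale (edgeR adjusted p = 0.000820). Outside these clusters, MRC2, an endocytic collagen receptor of the mannose receptor family, had 27365 and 24598 counts, against 11558 in the control (1.19 ± 0.154, edgeR adjusted p = 1.00e-04).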
